A study of Mus musculus with 23 samples.

Results

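Cited1, Ffar4, Slc25a18, Nrl, Plpp4 and Mlph are 6 genes with large rises in the ventricles of untreated MR-Cardio mice over untreated Ctrl mice. They are 6 of the 21892 genes with a symbol on the array. The list was taken as given, and each gene was read from the probes that the array annotation assigns to it: 2 probes for Nrl and 1 for each of the others. The genes were selected on their log2 differences between untreated MR-Cardio and Ctrl hearts, so the values of that comparison are given for them as a description with no test.

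MR-Cardio mice are transgenic and overexpress the mineralocorticoid receptor in cardiomyocytes, and Ctrl mice are non-transgenic. The 4 groups were MR-Cardio-Aldo (transgenic, aldosterone, n = 6), MR-Cardio (transgenic, no treatment, n = 7), Ctrl-Aldo (non-transgenic, aldosterone, n = 5) and Ctrl (non-transgenic, no treatment, n = 5). All 23 mice were male, and the labels give a duration of 7 days for every group. The labels name neither the promoter that drives the transgene nor the number of founder lines, nor an age or a dose. Each value is the log2 ratio of Cy5-labelled heart RNA over a Cy3-labelled reference, a pool of RNA from brain, heart, kidney, liver and spleen, so 1 unit is a doubling and 0 is the level of the pool.

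The mineralocorticoid receptor, encoded by Nr3c2, is a nuclear receptor that binds aldosterone and glucocorticoids and then acts as a transcription factor on response elements in DNA. It is best known from the kidney tubule, where aldosterone acts through it on sodium reabsorption, and it is also present in cardiomyocytes. The 6 genes belong to no single pathway. Cited1 encodes a coactivator that binds CBP and p300, and Nrl encodes a leucine zipper factor of the MAF family that specifies rod photoreceptors in the retina. Ffar4 encodes GPR120, a G protein-coupled receptor for long-chain fatty acids. Slc25a18 encodes a mitochondrial glutamate carrier, Plpp4 a phospholipid phosphatase, and Mlph encodes melanophilin, which links RAB27A on melanosomes to the motor myosin Va.

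Promoter sequences of the 6 genes, from RefSeq on the build GRCm38.p6, were searched because MR-Cardio hearts overexpress a DNA-binding receptor. Those of 3 genes are shown: Mlph and Nrl, the 2 with a match, and Cited1, without one. The promoters of Ffar4, Plpp4 and Slc25a18 and the others of Cited1 held no match and are not shown. Each sequence runs 5′ to 3′ on the strand of the gene and covers 250 bases before the annotated start and 50 from it onwards. Capitals mark the half-site of the steroid receptor response element, searched as AGAACA and, on the other strand, as TGTTCT. The build of the array annotation is not given in the sources used here. The promoter of Mlph, chr1:90914850-90915149 on the plus strand, that of Nrl, chr14:55524203-55524502 on the minus strand, and 1 of 3 annotated for Cited1, chrX:102252132-102252431 on the minus strand, read as follows.
Mlph: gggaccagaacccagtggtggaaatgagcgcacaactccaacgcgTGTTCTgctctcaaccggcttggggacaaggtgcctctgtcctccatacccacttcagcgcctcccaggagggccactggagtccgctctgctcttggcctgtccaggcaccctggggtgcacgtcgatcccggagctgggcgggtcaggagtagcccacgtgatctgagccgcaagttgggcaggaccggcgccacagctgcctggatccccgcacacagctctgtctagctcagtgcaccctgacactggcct
Nrl: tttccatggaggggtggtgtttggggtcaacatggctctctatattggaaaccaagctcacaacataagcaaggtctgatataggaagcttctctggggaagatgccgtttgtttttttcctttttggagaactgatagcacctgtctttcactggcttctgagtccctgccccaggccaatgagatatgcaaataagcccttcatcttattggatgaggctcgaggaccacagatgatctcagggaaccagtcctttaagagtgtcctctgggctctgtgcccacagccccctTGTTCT
Cited1: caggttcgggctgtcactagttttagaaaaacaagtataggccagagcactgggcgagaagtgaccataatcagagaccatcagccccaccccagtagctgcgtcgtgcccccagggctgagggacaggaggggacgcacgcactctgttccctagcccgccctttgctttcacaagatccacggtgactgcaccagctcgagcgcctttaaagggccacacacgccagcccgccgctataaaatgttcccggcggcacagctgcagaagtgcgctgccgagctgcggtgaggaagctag

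All 6 genes matched a promoter entry, 8 promoters in all, and 2 of the 8 held the half-site. Counted from the annotated start, its first base was at −205 in Mlph and at 44 in Nrl. The half-site was present in 19.0% of the 32851 mouse promoters of this length. The full palindrome, AGAACA followed after 3 bases of any kind by TGTTCT, contains both half-sites and was in 0 of the 8 and in 3 of all promoters (0.00913%). A match is a stretch of letters, and binding was not measured.

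The median ratio of an array lay between −0.04 and 0.12, and the precision of a value follows from the spread between hearts and the number of arrays. On the 10 spike-in probes the ratios were spread slightly wider on the 13 arrays of MR-Cardio and MR-Cardio-Aldo hearts (slopes 1.00 to 1.03) than on the 10 arrays of Ctrl and Ctrl-Aldo hearts (0.964 to 0.982). Spike-in offsets were below −0.3 on 5 arrays, 2 of MR-Cardio-Aldo and 3 of MR-Cardio. MR-Cardio-Aldo heart 1 stood apart. Its mean ratio over 10 cardiomyocyte markers was 1.17, against 1.72 to 2.16 in the other 12 transgenic hearts, and its mean over 10 fibroblast markers was 3.42, against 1.04 to 3.11. The comparisons between groups for the 6 genes, and the counts of related genes and markers, are given with and without it. In RNA of whole ventricle, fewer cells of a type and less RNA per cell cannot be told apart.

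Nr3c2 itself was high in every transgenic heart. Its ratio ran from 2.54 over a median of 4.08 to 4.83 in MR-Cardio-Aldo hearts, and was 0.43, 0.34, 0.025, 0.21 and 0.086 in Ctrl-Aldo hearts. In MR-Cardio hearts it ran from 2.49 over a median of 2.75 to 4.15, and it was 0.55, 0.48, 0.18, 0.47 and 0.48 in Ctrl hearts. The lowest transgenic heart lay 1.94 above the highest non-transgenic heart. The difference between MR-Cardio-Aldo and Ctrl-Aldo hearts was 3.75 ± 0.35 (SE), or 13.4-fold, with an adjusted p of 2.13e-07 in limma, a linear model fitted across all genes with Benjamini-Hochberg adjustment. Only 1 probe represents Nr3c2, and whether it reads the transgene, the endogenous gene or both is not given in the sources used here.

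The genotype difference was tested between the 11 aldosterone-treated hearts, which are outside the comparison that chose the genes. The list and the tests were, however, chosen with earlier results of these data known. In limma the spread was shared over all 23 arrays, so the untreated hearts entered it, and the permutation test used the 11 hearts alone. All 6 genes were higher in MR-Cardio-Aldo than in Ctrl-Aldo hearts at an adjusted p under 0.05, a level that 10.7% of the 21892 genes reached in the same direction (25.1% in either direction). All 6 also had every MR-Cardio-Aldo heart above every Ctrl-Aldo heart, which held for 6.26% of genes. The exact two-sided permutation test over the hearts gave p = 0.00433 for each gene, the smallest value that 6 against 5 hearts allow. Without MR-Cardio-Aldo heart 1 the 6 differences ran from 4.25 to 5.88, and with every array divided by its spike-in slope all 6 genes passed as well.

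**Figure D1:**
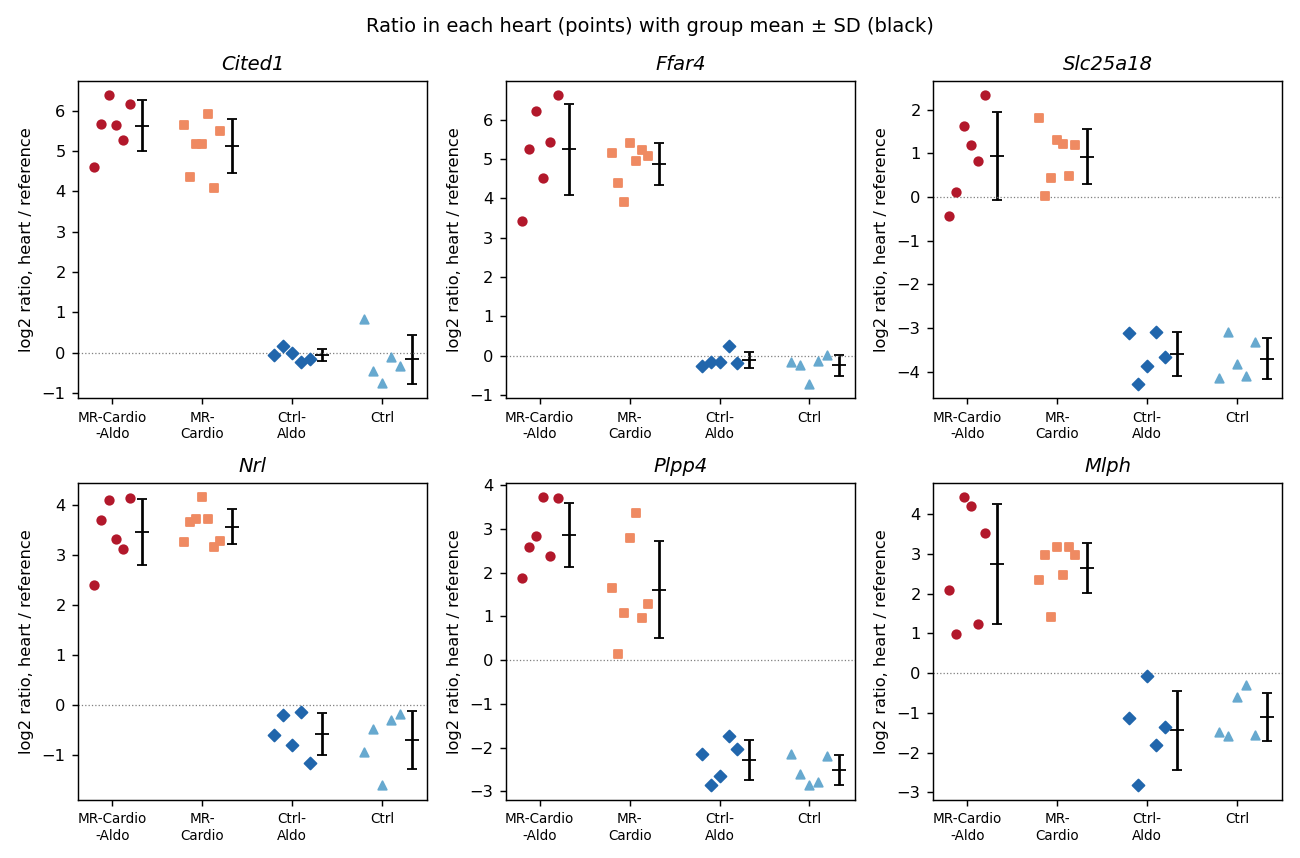
Log2 ratio of heart over reference RNA (vertical axis) for each of the 6 genes in each heart (points), by group from MR-Cardio-Aldo on the left to Ctrl on the right, with the group mean and SD in black. For every gene all 13 transgenic hearts lie above all 10 non-transgenic hearts, and the vertical axes differ between panels.

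The genes for regulators of transcription are described first. Cited1 had ratios from 4.60 over a median of 5.66 to 6.38 in MR-Cardio-Aldo hearts, against −0.059, 0.17, −0.012, −0.24 and −0.15 in Ctrl-Aldo hearts. Its difference of 5.68 ± 0.33 (SE) was 51.3-fold, with an adjusted p of 5.05e-10 in limma. By size it was rank 2 among the rises of all 21892 genes. In untreated hearts Cited1 ran from 4.07 over 5.18 to 5.92 in MR-Cardio, against 0.85, −0.44, −0.75, −0.097 and −0.34 in Ctrl. Non-transgenic hearts therefore lay near the level of the reference pool, on either side of 0, and the lowest transgenic heart was 3.22 above the highest of them.

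Nrl ran from 2.39 over a median of 3.50 to 4.14 in MR-Cardio-Aldo hearts, against −0.60, −0.21, −0.80, −0.14 and −1.17 in Ctrl-Aldo hearts. The difference was 4.04 ± 0.30 (SE), or 16.4-fold (adjusted p = 1.11e-08, limma). Its 2 probes, tested among all 39429 probes, differed by 3.85 ± 0.43 and 4.23 ± 0.29 (SE), so both showed the rise. In untreated hearts Nrl ran from 3.16 over 3.66 to 4.15 in MR-Cardio, against −0.93, −0.48, −1.61, −0.31 and −0.18 in Ctrl. All 10 non-transgenic hearts were below the reference pool, and the gap between the genotypes was 2.52.

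Ffar4, the fatty acid receptor, ran from 3.43 over a median of 5.35 to 6.62 in MR-Cardio-Aldo hearts, against −0.27, −0.15, −0.17, 0.25 and −0.18 in Ctrl-Aldo hearts. The difference was 5.35 ± 0.40 (SE), or 40.7-fold (adjusted p = 1.11e-08, limma), rank 3 of all rises. The lowest of the transgenic values belonged to MR-Cardio-Aldo heart 1, and without that heart the difference was 5.71 ± 0.32 (SE). In untreated hearts Ffar4 ran from 3.90 over 5.08 to 5.41 in MR-Cardio, against −0.17, −0.23, −0.71, −0.13 and 0.015 in Ctrl. As with Cited1, the non-transgenic hearts lay close to the pool.

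Unlike Cited1 and Ffar4, Slc25a18 had ratios far below 0 in non-transgenic hearts. A ratio also depends on the level in the pool, so it does not rank the genes by their level in heart. Slc25a18 ran from −0.45 over a median of 1.00 to 2.32 in MR-Cardio-Aldo hearts, against −3.13, −4.28, −3.88, −3.09 and −3.66 in Ctrl-Aldo hearts. The difference was 4.54 ± 0.40 (SE), or 23.3-fold (adjusted p = 1.21e-07, limma). In untreated hearts it ran from 0.024 over 1.20 to 1.81 in MR-Cardio, against −4.15, −3.10, −3.82, −4.11 and −3.33 in Ctrl. Its transgenic hearts thus lay above the pool in 12 of 13 cases, and all 10 non-transgenic hearts lay below it.

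Plpp4 ran from 1.89 over a median of 2.72 to 3.73 in MR-Cardio-Aldo hearts, against −2.16, −2.84, −2.65, −1.73 and −2.04 in Ctrl-Aldo hearts. The difference was 5.14 ± 0.45 (SE), or 35.3-fold (adjusted p = 9.14e-08, limma), rank 4 of all rises. In untreated hearts it ran from 0.13 over 1.28 to 3.36 in MR-Cardio, against −2.14, −2.60, −2.86, −2.78 and −2.18 in Ctrl. Plpp4 was thus below the pool in all 10 non-transgenic hearts and above it in all 13 transgenic ones.

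Mlph, the melanosome adaptor, was the most variable of the 6. It ran from 0.99 over a median of 2.80 to 4.43 in MR-Cardio-Aldo hearts, against −1.13, −2.82, −0.082, −1.81 and −1.36 in Ctrl-Aldo hearts. The difference was 4.18 ± 0.58 (SE), or 18.2-fold (adjusted p = 2.88e-05, limma). In untreated hearts it ran from 1.40 over 2.97 to 3.18 in MR-Cardio, against −1.47, −1.59, −0.61, −0.31 and −1.56 in Ctrl. The gap between its lowest transgenic and highest non-transgenic heart was 1.08, the smallest of the 6.

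In the untreated comparison that chose the genes, the differences were 5.27 for Cited1, 5.12 for Ffar4, 4.63 for Slc25a18, 4.26 for Nrl, 4.12 for Plpp4 and 3.75 for Mlph. These were ranks 2, 3, 6, 7, 10 and 12 among the rises of all genes, where 5.79% of genes passed as higher, 7.82% as lower and 13.6% in all, and where 2.95% had every MR-Cardio heart above every Ctrl heart. Klk1b16, Kcnk1, Amy1, Mthfd2, Tnnt3 and Tnni2 filled the other ranks down to 12. Mlph, the last member, and Egfbp2, the next gene outside the list, both had a difference of 3.75, followed by Sec14l4 with 3.72. No filter on low values was applied to the values reported here, so all 6 genes were tested. Ratios against a pool, without the signals of the single channels, do not show whether a gene was silent in Ctrl hearts. The data show large rises, and whether these are a switch from off to on cannot be told.

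**Figure D2:**
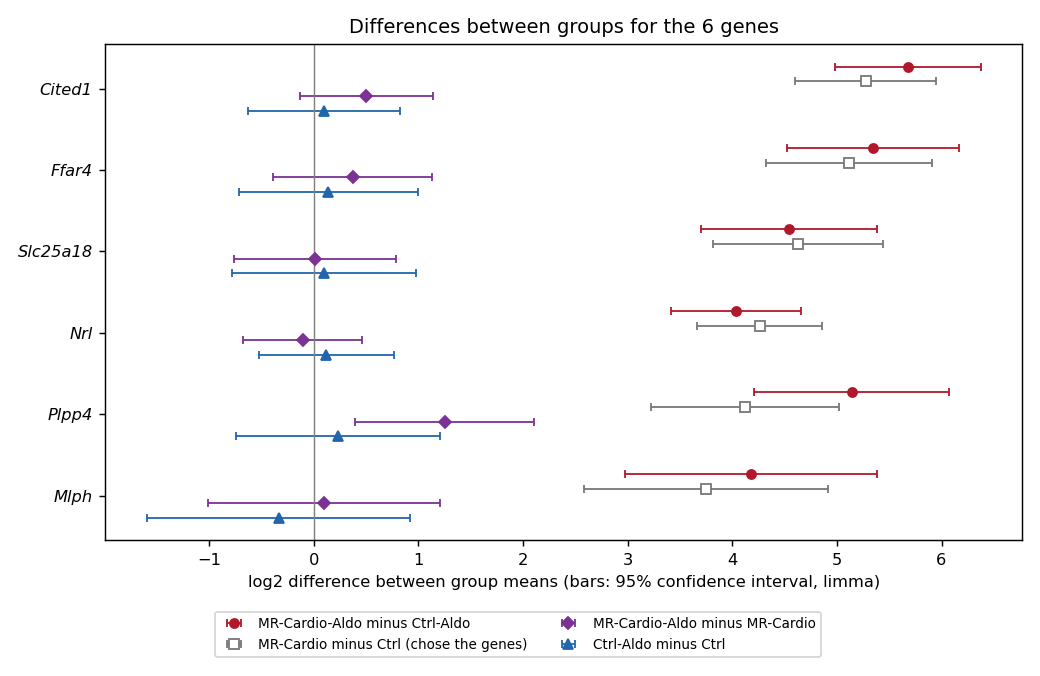
Log2 difference between group means (horizontal axis) with 95% confidence intervals from limma for the 6 genes and 4 comparisons. The genotype differences under aldosterone (filled circles) lie between 4.04 and 5.68, the open squares mark the comparison that chose the genes, and of the aldosterone differences the interval of Plpp4 in transgenic hearts alone does not reach 0.

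Whether aldosterone added to these rises was asked in the transgenic hearts. This comparison of MR-Cardio-Aldo with MR-Cardio hearts uses again the MR-Cardio hearts that entered the choice of the genes. None of the 6 genes passed (0 of 6), where 1.43% of all genes did, 0.95% as higher. Plpp4 came nearest: its mean was 2.86 ± 0.74 in MR-Cardio-Aldo hearts (SD, n = 6) and 1.61 ± 1.11 in MR-Cardio hearts (SD, n = 7). Its difference was 1.25 ± 0.41 (SE; 95% interval 0.39 to 2.11), with p = 0.00625 before and 0.139 after adjustment over all genes in limma, and with p = 0.0420 in the exact permutation test. All 6 MR-Cardio-Aldo hearts lay above the MR-Cardio median, and the groups overlapped. Without MR-Cardio heart 5, the highest of the untreated ones, the difference was 1.54 (adjusted p = 0.0243, limma).

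For the other genes the intervals of the aldosterone difference bound its size. The difference was 0.50 (−0.14 to 1.14) for Cited1, 0.37 (−0.39 to 1.13) for Ffar4 and 0.012 (−0.76 to 0.79) for Slc25a18. It was −0.11 (−0.68 to 0.46) for Nrl and 0.099 (−1.01 to 1.21) for Mlph. With all hearts each of these 5 intervals includes 0, and none reaches above 1.21. Without MR-Cardio-Aldo heart 1 the differences of Cited1 and Ffar4 were 0.71 (0.086 to 1.33) and 0.73 (0.12 to 1.35), intervals that do not include 0, but neither gene passed the adjustment (adjusted p = 0.316 and 0.286, limma). The upper bound for Mlph was then 1.41. The difference of Plpp4 was 1.44 (adjusted p = 0.118). Nr3c2 itself differed by 0.75 ± 0.32 (SE, adjusted p = 0.270), and by 1.04 ± 0.28 without that heart (adjusted p = 0.0822).

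In non-transgenic hearts no gene of the array passed for aldosterone in limma (0 of 21892; 1036 had an unadjusted p under 0.05). The 6 differences between Ctrl-Aldo and Ctrl hearts ran from −0.33 for Mlph to 0.23 for Plpp4, and every 95% interval included 0. These Ctrl hearts also entered the choice of the genes. The test of whether the aldosterone difference itself differed between genotypes gave 0 calls among all genes (1197 at an unadjusted p under 0.05). For the 6 genes this interaction ran from −0.23 for Nrl to 1.02 ± 0.62 (SE) for Plpp4 (adjusted p = 0.922). Thus for no member was the aldosterone difference shown to depend on genotype.

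The spread between hearts of a group was wider in transgenic animals for 5 of the genes. The pooled SD within groups was 0.88 over transgenic and 0.24 over non-transgenic hearts for Ffar4, and 0.96 and 0.40 for Plpp4. It was 0.82 and 0.49 for Slc25a18, 0.66 and 0.44 for Cited1, and 1.12 and 0.83 for Mlph. Nrl had nearly the same SD in both, 0.52 and 0.51. The median over all genes was 0.25 in transgenic and 0.20 in non-transgenic hearts, so the members spread more than most genes in both genotypes. For Nr3c2 it was 0.78 and 0.16, the highest ratio of the 7 genes. These SDs are a description and were not tested.

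Because Nr3c2 varied between transgenic hearts, each gene was set against it heart by heart. In the 13 hearts, with the mean of each treatment group removed from both genes, Pearson's r was 0.79 for Cited1 (permutation p = 0.00267), 0.79 for Nrl (p = 0.00351), 0.78 for Plpp4 (p = 0.00103), 0.77 for Slc25a18 (p = 0.00492) and 0.72 for Ffar4 (p = 0.0102). For Mlph r was 0.33 (permutation p = 0.347). Spearman's rho was 0.79 for Cited1 (p = 0.00301), 0.72 for Nrl (p = 0.00658), 0.83 for Plpp4 (p = 0.00148) and 0.74 for Slc25a18 (p = 0.00700), and 0.53 for Ffar4 (p = 0.0747) and 0.30 for Mlph (p = 0.346), by permutation. Over the 13 hearts, those with more Nr3c2 thus tended to have more of 5 of the 6 genes, with slopes of 0.52 to 0.96 log2 units per unit of Nr3c2 for these 5.

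These p-values are unadjusted, and 12 such relations were computed, 6 in each genotype. When every gene of the array was regressed on Nr3c2 in the same 13 hearts, 0 of 21891 genes passed at an adjusted p under 0.05, although 5.45% had an unadjusted p under 0.05 with a positive slope. The adjusted p in limma was 0.164 for Cited1, 0.172 for Nrl and Plpp4, 0.194 for Slc25a18, 0.266 for Ffar4 and 0.731 for Mlph. None of the links therefore passed the correction over all genes. By r, the 5 genes stood above 98.2% to 99.2% of genes and Mlph above 80.1%.

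Leaving out hearts lowered r for some genes and raised it for others. With MR-Cardio-Aldo heart 1 alone left out, r was 0.27 for Mlph and 0.52 (Ffar4) to 0.77 (Plpp4) for the others. In the limma regression without that heart, the slope intervals of Ffar4 (−0.053 to 1.13, unadjusted p = 0.0701) and Mlph included 0. The other slope intervals lay above 0. The adjusted p ran from 0.581 for Plpp4 to 0.915 for Ffar4 and Mlph. An unadjusted p under 0.05 was then found for 5.52% of genes, against 9.89% with all transgenic hearts. Without the 2 hearts farthest from the median, MR-Cardio-Aldo 1 and MR-Cardio 5, r was 0.66 for Cited1 (permutation p = 0.0301), 0.71 for Nrl (p = 0.0217), 0.72 for Plpp4 (p = 0.0186), 0.70 for Slc25a18 (p = 0.0170), 0.63 for Ffar4 (p = 0.0359) and 0.34 for Mlph (p = 0.253). The Nr3c2 ratios of transgenic hearts also fell on 2 sides of a gap, with 5 hearts between 2.49 and 2.75 and 8 hearts between 3.54 and 4.83. The split at this gap was made after seeing the data. Within the 8 upper hearts, group means again removed, r was 0.86 for Cited1 (permutation p = 0.0184) and 0.84 for Nrl (p = 0.0153). It was 0.68 for Ffar4 (permutation p = 0.182), 0.60 for Slc25a18 (p = 0.247), 0.58 for Mlph (p = 0.272) and 0.48 for Plpp4 (p = 0.226). In the regression of all genes within these 8 hearts 0 genes passed in limma, with an adjusted p of 0.876 for Cited1 and Nrl and above it for the other 4 genes. No r was computed for the lower 5 hearts. Also added after seeing the data was a fit over all transgenic hearts with the mean ratio of the cardiomyocyte markers removed too. There r was 0.77 for Cited1, 0.74 for Nrl, 0.88 for Plpp4, 0.73 for Slc25a18, 0.68 for Ffar4 and 0.29 for Mlph. With the mean of the cardiomyocyte markers itself, group means removed, r was 0.38 for Nr3c2 and 0.68 for Ffar4. For the other members it ran from −0.085 for Plpp4 to 0.51 for Nrl. With the mean of the fibroblast markers r was −0.39 for Nr3c2, −0.59 for Ffar4, and −0.46 for Mlph to 0.013 for Plpp4 among the others. No fit with the fibroblast markers removed is given.

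**Figure D3:**
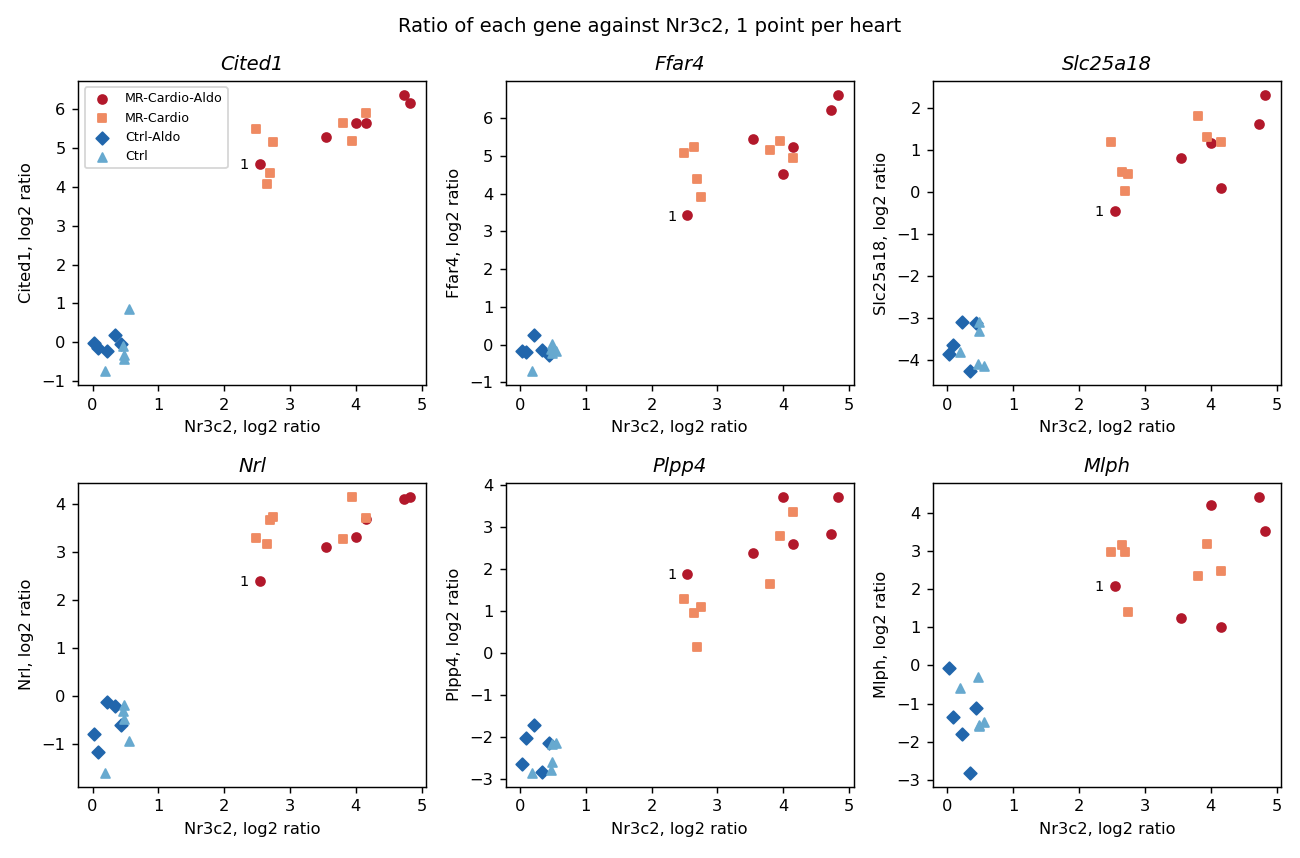
Log2 ratio of each gene (vertical axis) against that of Nr3c2 (horizontal axis), 1 point per heart, with MR-Cardio-Aldo heart 1 marked 1. In transgenic hearts, on the right, the first 5 genes are higher where Nr3c2 is higher (r from 0.72 to 0.79 over 13 hearts), and Mlph is scattered (r = 0.33).

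Within each treatment group the link had the following size, and the difference between the groups was not tested. In the 6 MR-Cardio-Aldo hearts r was 0.99 for Cited1 (exact permutation p = 0.00833) and 0.99 for Nrl (p = 0.00278, the smallest possible), and Spearman's rho was 0.94 (p = 0.0167) and 1.00 (p = 0.00278). These 6 include MR-Cardio-Aldo heart 1, and no value was computed for the 5 hearts left without it. In the 7 MR-Cardio hearts r was 0.62 for Cited1 (exact permutation p = 0.139) and 0.46 for Nrl (p = 0.237), with rho of 0.57 for both (p = 0.200). Plpp4 had the higher r in MR-Cardio hearts, 0.87 (exact permutation p = 0.0119), against 0.73 in MR-Cardio-Aldo hearts (p = 0.0750). Ffar4 had r of 0.90 in MR-Cardio-Aldo hearts (exact permutation p = 0.0222) and 0.42 in MR-Cardio hearts (p = 0.408), where its rho was 0.071 (p = 0.906). Slc25a18 had r of 0.84 in MR-Cardio-Aldo hearts (exact permutation p = 0.0278) and 0.68 in MR-Cardio hearts (p = 0.154). For Mlph r was 0.51 in MR-Cardio-Aldo hearts (exact permutation p = 0.317) and −0.025 in MR-Cardio hearts (p = 0.954). In untreated transgenic hearts taken alone, Plpp4 was thus the single gene with an unadjusted p under 0.05. In the 10 non-transgenic hearts, where Nr3c2 spans a narrow range, r ran from −0.53 for Mlph to 0.63 for Nrl, and the lowest permutation p was 0.0621.

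The genes were also set against one another. Among the 15 pairs of the 6 genes, r over the 13 transgenic hearts, group means removed, was positive in all 15. It ran from 0.23 to 0.78 with a median of 0.55. An unadjusted permutation p under 0.05 was found for 6 of the 15, and no values for pairs of other genes are given for comparison. The highest r was that of Cited1 with Slc25a18 (r = 0.78, permutation p = 0.00212, and rho = 0.80, p = 0.00287, both unadjusted). Each pair was also computed without the 2 hearts farthest from the median of its first gene, in the order of the list. That of Cited1 with Slc25a18 was then 0.72, and the 15 values ran from 0.095 to 0.72 with a median of 0.31. For Slc25a18 with Nrl r was 0.095, against 0.56 with all 13 hearts. Leaving out the extremes of 1 gene narrows its range. How far the shared variation rested on those hearts therefore cannot be read from these values. In the 10 non-transgenic hearts the same 15 pairs ran from −0.52 to 0.80, with 9 positive. Over all 23 hearts the genes most like the mean of the 6 were Fkbp5 and Kcnk1 (r = 0.991 each), Ints3 (0.984), Orm3 and Pnmt (0.982 each). Fkbp5 encodes a co-chaperone of steroid receptors that glucocorticoids induce. These r values are a description, and the hearts in them fall into 2 genotypes. Within the 13 transgenic hearts, Fkbp5 was also the gene most like Cited1 (r = 0.954). Yjefn3 followed (0.945), and the closest to the others were Exosc10 and Tusc1 for Ffar4, Cklf and Vwce for Slc25a18, Pnpla8 and Cmss1 for Nrl, Bex4 and Hprt for Plpp4, and Bri3bp and Olfr1028 for Mlph, with r from 0.866 to 0.963.

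Relatives and partners of each gene were examined in the treated genotype comparison, to see whether a family moved with its member. Over all genes, 10.7% rose, 14.4% fell and the median difference was −0.04. Of 8 relatives and partners of Cited1, 1 rose, 0 fell and 7 did not pass, with a median of 0.15. The 1 was Cited2, another member of the family, with a difference of 0.51 ± 0.14 (SE, adjusted p = 0.00864, limma). Crebbp and Ep300, which encode the coactivators that CITED1 binds, differed by −0.077 and 0.18 and did not pass.

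Of 11 fatty acid receptors and partners of Ffar4, 1 rose, 2 fell and 8 did not pass, with a median of 0.020. Ffar1, another receptor for long-chain fatty acids, fell by 0.67 ± 0.16 (SE, adjusted p = 0.00467, limma). Its mean was −0.14 ± 0.21 in MR-Cardio-Aldo hearts (SD, n = 6) and 0.53 ± 0.21 in Ctrl-Aldo hearts (SD, n = 5), while in untreated hearts the difference was 0.11 (adjusted p = 0.723). Gna11, a G protein subunit, fell by 0.19, and Arrb1, an arrestin, rose by 0.27.

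Around Slc25a18 the related genes that passed fell. Of 11 measured genes of glutamate transport and metabolism, 0 rose, 6 fell and 5 did not pass, with a median of −0.34. Slc25a22, the other mitochondrial glutamate carrier, had a mean ratio of −1.10 ± 0.18 in MR-Cardio-Aldo hearts (SD, n = 6) and −0.24 ± 0.13 in Ctrl-Aldo hearts (SD, n = 5). It fell by 0.86 ± 0.14 (SE, adjusted p = 0.000144, limma), and in untreated hearts by 0.52 (adjusted p = 0.0137). Glul, glutamine synthetase, fell by 1.65 ± 0.21 (adjusted p = 9.18e-06), Gpt, an alanine aminotransferase, by 1.08 ± 0.21 (adjusted p = 0.000614) and Slc25a11, the oxoglutarate carrier, by 0.79 ± 0.17 (adjusted p = 0.00161). In untreated hearts only Slc25a22 of these 11 genes passed. Without MR-Cardio-Aldo heart 1 the count was 5 of 11.

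Of 12 measured MAF factors and rod genes related to Nrl, 3 rose, 3 fell and 6 did not pass, with a median of −0.06. The small MAF factors Maff and Mafk rose by 1.09 ± 0.22 and 0.82 ± 0.09 (SE, adjusted p = 0.000938 and 1.88e-06, limma). Sag, the arrestin of rods, had a mean of 2.39 ± 1.04 in MR-Cardio-Aldo hearts (SD, n = 6) and 0.35 ± 0.51 in Ctrl-Aldo hearts (SD, n = 5), a rise of 2.04 ± 0.46 (SE, adjusted p = 0.00268). Cnga1, a channel subunit of rods, fell by 1.49 ± 0.33 (SE, adjusted p = 0.00208). Crx, which acts with NRL in rods, differed by −0.10 and did not pass. Rod genes therefore moved in both directions beside Nrl.

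Of 11 lipid phosphatases related to Plpp4, 2 rose, 1 fell and 8 did not pass, with a median of −0.12. Lpin2, a phosphatidate phosphatase, rose by 0.74 ± 0.19 (SE, adjusted p = 0.00795, limma), Plpp3 rose by 0.35, and Plppr4 fell by 0.52. Of 16 genes of RAB27 transport around Mlph, 1 rose, 3 fell and 12 did not pass, with a median of −0.016. Rab27a and Myo5a, which encode the direct partners of melanophilin, differed by 0.0085 ± 0.20 and 0.70 ± 0.27 (SE; adjusted p = 0.981 and 0.0622, limma). Rph3al, a RAB effector, fell by 1.16 ± 0.24 (SE, adjusted p = 0.00136). Sytl4 and Sytl3 fell by 0.61 and 0.59, and Rab3gap1 rose by 0.31. Without MR-Cardio-Aldo heart 1 the counts were 4 up and 3 down of the 12 related to Nrl and 2 up and 2 down of the 11 related to Plpp4. They did not change for the lists around Cited1, Ffar4 and Mlph.

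**Figure D4:**
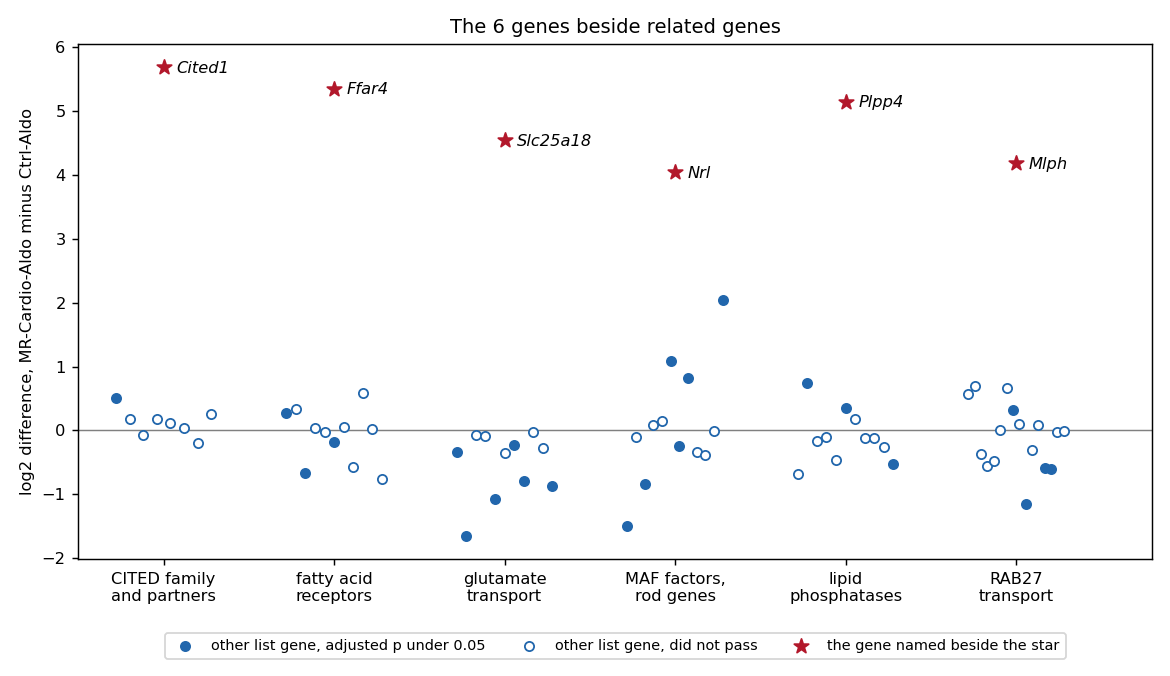
Log2 difference between MR-Cardio-Aldo and Ctrl-Aldo hearts (vertical axis) for the 6 genes (stars) and for the other genes of the list related to each (circles, filled where the adjusted p in limma was under 0.05). The 6 genes lie between 4.04 and 5.68, and every related gene lies between −1.65 and 2.04.

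Lists of markers of cell types and tissues gave the following values in the same comparison. Of 8 measured rod markers, a list that shares genes with that around Nrl, 1 rose and 2 fell, and their mean ratio ran from −0.59 to −0.17 in MR-Cardio-Aldo and from −0.54 to −0.044 in Ctrl-Aldo hearts. Of 10 melanocyte markers 0 rose and 3 fell (−0.65 to −0.21 in MR-Cardio-Aldo and −0.035 to 0.12 in Ctrl-Aldo hearts). Of 9 measured adipocyte markers 0 rose and 1 fell (−1.32 to −0.82 in MR-Cardio-Aldo and −1.45 to −0.85 in Ctrl-Aldo hearts). Of 9 measured kidney markers 0 rose and 6 fell. The other tissues of the reference pool showed falls too: of 10 liver markers 0 rose and 10 fell, of 9 measured brain markers 1 rose and 3 fell, and of 9 measured spleen markers 1 rose and 2 fell. The mean of the liver markers ran from −5.33 to −4.79 in MR-Cardio-Aldo and from −4.19 to −4.10 in Ctrl-Aldo hearts. The median difference of the liver markers was −0.78, and −0.80 in untreated hearts, where 10 fell too. Spike-in slopes were 1.00 to 1.03 on the transgenic arrays and 0.964 to 0.982 on the others, ranges that do not overlap. An array difference that goes with genotype therefore cannot be told apart from genotype, here or in the shares of all genes called. These counts use ratios not divided by the slope, and its part in the falls was not tested. Among the 10 markers of fibroblasts, 6 did not pass, 4 were higher and 0 lower in MR-Cardio-Aldo hearts, and their mean ran from 1.52 to 3.42 in MR-Cardio-Aldo hearts, against 1.14 to 1.73 in Ctrl-Aldo hearts. In untreated hearts 3 of the 10 rose, and the mean ran from 1.04 to 3.11 in MR-Cardio hearts, against 0.78 to 1.49 in Ctrl hearts. Of 10 cardiomyocyte markers 0 rose and 2 fell (1.17 to 1.96 in MR-Cardio-Aldo and 1.92 to 2.31 in Ctrl-Aldo hearts). Of 10 macrophage markers 1 rose and 0 fell, with a median difference of 0.41 (−0.60 to 0.69 in MR-Cardio-Aldo and −0.62 to −0.26 in Ctrl-Aldo hearts). Of 10 endothelial markers 1 rose and 0 fell, with a median of −0.11 (0.78 to 1.54 in MR-Cardio-Aldo and 1.27 to 1.39 in Ctrl-Aldo hearts). The 0.69 and the 0.78 belonged to MR-Cardio-Aldo heart 1. Without MR-Cardio-Aldo heart 1, 2 fibroblast markers rose, their mean in MR-Cardio-Aldo hearts ran from 1.52 to 2.70, and that of the cardiomyocyte markers ran from 1.72 to 1.96, with 0 up and 2 down as before. Of the adipocyte markers 1 then rose and 1 fell, and 0 spleen, macrophage or endothelial markers rose. The counts for rod, melanocyte, kidney, liver and brain markers did not change. The list fits without this heart were added after seeing the data. The part of cell composition in the rises of the 6 genes was not tested.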

How the data were processed

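RNA from ventricles was hybridised against the pooled reference on 2-colour Agilent arrays, all with the same dye orientation, per the labels, and the submitters' processing notes name the Agilent software Feature Extraction, version 10.7.3.1. The deposited table holds a log2 ratio, heart over pool, for each probe; base and direction were inferred from the spike-in probes and tissue genes. No source used here gives the background correction or normalization. Of 39485 lines, 56 control probes were removed, and 30625 of 39429 probes had 1 gene symbol, 8804 none. Probes were averaged per gene (21892 genes). Differences were tested with limma 3.58.1 (R 4.3.3) on all 23 arrays with 1 mean per group, two-sided, with Benjamini-Hochberg adjustment over all genes and a threshold of 0.05. The step was tested on simulated data. Relations with Nr3c2 used 100000 shuffles of hearts within groups (scipy 1.17.1) and a limma regression over all genes, used in place of the planned adjustment over the 12 relations alone. Mice carry separate animal numbers in the labels, so p-values refer to the spread between animals. Named genes were the 6 members, Nr3c2, up to 4 genes of each related list by smallest p, the genes most alike by r, and the untreated rises down to rank 12; the direct partners Crebbp, Ep300, Crx, Rab27a and Myo5a, and the genes next after rank 12, were named beyond this rule or after their values were seen. The members, gene lists and tests were chosen with earlier results of these data known. Alternatives were centring, quantile normalization, spike-in scaling and offset, the most variable probe, array weights, eBayes with a trend and robust variances, a fit of the compared groups alone, a filter on low ratios, the sample number as a replicate block and each heart left out.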

Additional observations from a re-analysis of the deposited data

Results flagged for a closer look

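Each of the 6 genes and Nr3c2 was screened in each of the 4 groups for a heart far from the others, 28 screens in all, and chance flags about 1 in 20 of them. Ctrl-Aldo heart 4 had an Ffar4 ratio of 0.25, above the other 4 Ctrl-Aldo hearts, which lay between −0.27 and −0.15. Ctrl heart 3 had an Nr3c2 ratio of 0.18, below the other 4 Ctrl hearts, which lay between 0.47 and 0.55. Both hearts remained far below the transgenic hearts for the gene concerned.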

How the results depend on the processing

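For the genotype difference under aldosterone, all members tested passed under every alternative and with each heart left out; a filter on genes with the lowest mean ratios removed Slc25a18, so 5 members were tested there. Genes called in that comparison ran from 3693 to 6135 over the alternatives. In the untreated comparison 2978 genes were called, against 1614 with that filter and, in alternatives chosen after seeing the data, 1086 without the 5 arrays of low spike-in offset and 1888 with low offset as a block. For aldosterone in transgenic hearts 314 genes were called, against 0 with the compared groups alone (2562 at an unadjusted p under 0.05), 94 with the filter and 154 with the sample number as a replicate block; leaving out 1 heart gave 138 to 697 genes (146, 697 and 154 without MR-Cardio hearts 2, 5 and 6, and 199, 152 and 138 without MR-Cardio-Aldo hearts 1, 2 and 4) and 0 to 1 members, the 1 being Plpp4 without MR-Cardio heart 5 (1.54). For aldosterone in non-transgenic hearts the compared groups alone gave 8 genes, and leaving out 1 heart gave 0 to 1; the interaction likewise gave 0 to 1. The cause of these changes was not tested. Same-numbered hearts of different groups deviated with r of −0.16 to 0.28 over 31 pairs (median −0.013). Over 166 pairs with other numbers r was −0.27 to 0.21 (median 0.0014). Of 22 arrays, 7 correlated best with their own number. These values do not settle whether the numbers pair hearts, and the block changed no call of a member. With 1 heart left out, r with Nr3c2 ran from 0.70 to 0.90 for Cited1, which alone passed over all genes in 1 case (0.90 without MR-Cardio heart 7, adjusted p = 0.0347, limma), 0.52 to 0.78 for Ffar4, 0.66 to 0.85 for Slc25a18, 0.64 to 0.87 for Nrl, 0.74 to 0.83 for Plpp4 and 0.21 to 0.44 for Mlph. Without MR-Cardio-Aldo heart 1 the r was 0.70, 0.52, 0.66, 0.64 and 0.77 for Cited1, Ffar4, Slc25a18, Nrl and Plpp4. Only 1 probe carries the symbol Nr3c2, so the alternative by probe was not run. Signal over background was not used here, which limits what can be said of low levels.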
